A study of Mus musculus with 12 samples.

Results

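Condensins are the ring-shaped protein complexes that fold interphase chromatin into compact mitotic chromosomes. The 8 mouse genes that encode their subunits (Smc2, Smc4, Ncapd2, Ncapg, Ncaph, Ncapd3, Ncapg2 and Ncaph2) were followed across 12 oral tumours. They are the known subunits of both complexes, so the rule itself uses no measured value, although the complexes were picked for study with earlier results of these data known. All 8 were found among the 23102 genes with a value. The tumours came from C57BL/6 × FVB F1 mice given tamoxifen by intraperitoneal injection, which both groups share. KHR tumours (n = 6) expressed RAS together with a transgene that the labels write as iHPV, and a further label names as HPV E6, a protein of human papillomavirus. KR tumours (n = 6) expressed RAS alone. The comparison addresses what a viral oncogene adds to RAS in gene expression of oral tumours. The sources used here do not give the promoter or Cre line behind these alleles, the viral genes carried beside E6, or the sex and age of the mice. Whether each tumour had a mouse of its own is likewise not stated, and the p-values therefore reflect the spread between these samples, which may be technical.

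A condensin is built on a pair of SMC ATPases, Smc2 and Smc4, which both complexes share. Condensin I adds the kleisin Ncaph and the HEAT-repeat subunits Ncapd2 and Ncapg, and condensin II adds the kleisin Ncaph2 with Ncapd3 and Ncapg2. In vertebrate cells condensin II is in the nucleus throughout the cell cycle and begins to fold chromosomes in prophase, whereas condensin I reaches them after the nuclear envelope breaks down. Both complexes are known from dividing cells, those of epithelia included, where their loss leaves sister chromosomes tangled at division.

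Each tumour gave 1 Affymetrix Mouse Gene 2.0 ST array read at the level of exon probesets, deposited as log2 intensities. The value of a gene is the median of its probesets, of which the 8 genes had 194 in all (10 to 34 each), and a change is KHR minus KR on the log2 scale. A gene was called where limma gave an adjusted p under 0.05 over all genes. Arrays had similar medians over all probesets, 5.62 to 5.75. The labelled epithelial tumours carried their markers: all 8 squamous keratinocyte markers lay above the median level of all genes (4.98), with array means of 11.82 to 12.09 in KHR tumours and 11.91 to 12.06 in KR tumours. The mean of 13 skeletal muscle genes ran from 5.62 to 8.16 in KHR tumours, highest in KHR 5, and from 5.42 to 6.91 in KR tumours. Xist, an RNA of female cells, was high on 4 of the 6 KHR arrays and 2 of the 6 KR arrays. In bulk tumour RNA, a larger share of dividing cells and more RNA per dividing cell cannot be told apart.

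Condensin genes were higher in the tumours that carried the viral transgene. Of the 8, 5 rose and none fell in KHR tumours: Ncaph, Ncapg2, Smc2, Ncapd3 and Ncapg. Of all genes tested, 2.71% were called higher and 1.03% lower, 3.74% in all. Smc4, Ncapd2 and Ncaph2 also had higher means in KHR tumours but did not pass the test. The changes ran from 0.30 for Ncaph2 to 0.99 for Ncaph, with a median of 0.65, against a median of 0.00 over all genes, of which 51.0% had a change above 0. All KHR arrays lay above all KR arrays for Ncaph, Ncapg2 and Smc4, a pattern shown by 1.83% of all genes. Each complex was represented among those that rose, with 1 of the 2 SMC genes, 2 of the 3 condensin I genes and 2 of the 3 condensin II genes. With the mean of the muscle genes as a covariate 2 of the 8 were called, Ncaph and Ncapg2, while the changes of Smc2, Ncapd3 and Ncapg in that fit were 0.62, 0.54 and 0.52 (limma adjusted p = 0.0509, 0.0621 and 0.111), against 0.70, 0.61 and 0.67 without it. Over all genes, the fit with the muscle covariate called 620, 485 of them higher, against 863 and 625 without it. With Xist as a covariate 4 of the 8 were called, without Ncapg, and 555 over all genes. Leaving out KHR 3, KHR 4, KHR 6 or KR 2 gave 3 calls, Ncaph, Ncapg2 and Smc2. Calls over all genes were then 607, 523, 646 and 531, in that order.

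**Figure D1:**
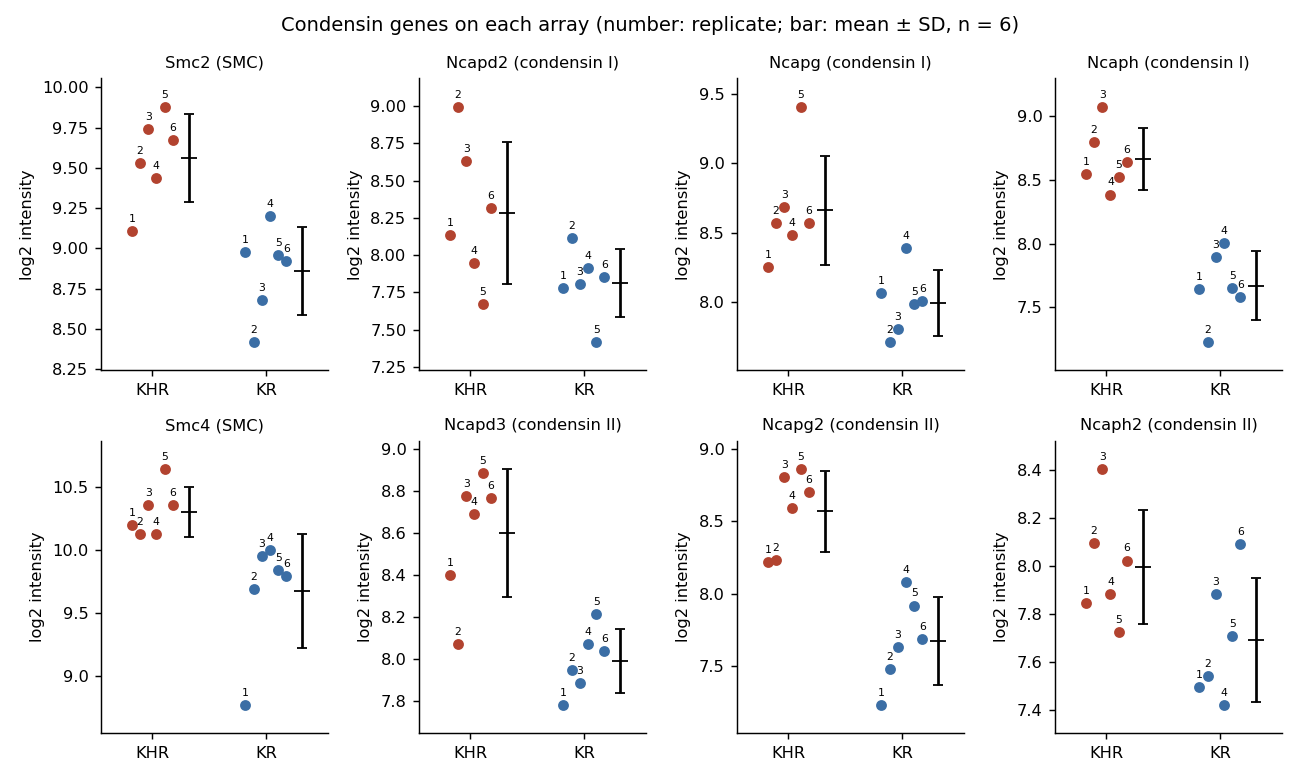
Log2 intensity of each condensin gene (vertical axis, a scale of its own in each panel) on the 6 KHR arrays and the 6 KR arrays, with replicate numbers beside the points and bars for the mean ± SD. The groups do not overlap for Ncaph, Ncapg2 and Smc4, KR 1 is low for Smc4 at 8.77, and KHR 5 is high for Ncapg at 9.41.

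The promoters of the condensin genes are shown because 3 of them hold the same kind of E2F-type sequence. This motif class is bound by the transcription factors of S phase genes. Of those 3 genes, Ncapg and Ncapg2 rose and Ncapd2 did not pass. Smc2, Ncaph and Ncapd3 rose as well, and their windows held no E2F-type match. Windows from 250 bases before to 50 bases after a RefSeq start (build GRCm38.p6) were given for 7 of the 8 genes, and none was given for Smc4. The motifs searched on both strands were the E2F-type letters TTTCCCGC, TTTGGCGC, TTTCGCGC and TTTGCCGC, the cell-cycle homology region letters TTTGAA (CHR, an element of late cell cycle genes) and CCAAT. These motifs share no overlapping match in the windows shown. In the sequences below, 5′ to 3′ on the gene's strand, capitals mark every match to any of the 3 motifs. Ncapg lies on the plus strand (chr5:45669675-45669974), Ncapg2 on the plus strand (chr12:116405186-116405485) and Ncapd2 on the minus strand (chr6:125191537-125191836).
Ncapg promoter: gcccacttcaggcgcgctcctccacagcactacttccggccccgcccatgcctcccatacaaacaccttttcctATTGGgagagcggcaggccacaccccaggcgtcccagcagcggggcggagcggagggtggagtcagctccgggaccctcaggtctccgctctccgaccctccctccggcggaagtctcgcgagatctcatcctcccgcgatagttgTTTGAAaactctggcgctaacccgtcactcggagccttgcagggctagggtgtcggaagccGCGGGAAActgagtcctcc
Ncapg2 promoter: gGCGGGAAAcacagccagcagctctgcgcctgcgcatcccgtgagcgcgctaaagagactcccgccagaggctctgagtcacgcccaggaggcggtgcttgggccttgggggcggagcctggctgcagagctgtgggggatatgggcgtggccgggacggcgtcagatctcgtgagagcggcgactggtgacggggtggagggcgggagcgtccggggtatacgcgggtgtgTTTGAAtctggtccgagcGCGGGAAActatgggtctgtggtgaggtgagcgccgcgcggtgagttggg
Ncapd2 promoter: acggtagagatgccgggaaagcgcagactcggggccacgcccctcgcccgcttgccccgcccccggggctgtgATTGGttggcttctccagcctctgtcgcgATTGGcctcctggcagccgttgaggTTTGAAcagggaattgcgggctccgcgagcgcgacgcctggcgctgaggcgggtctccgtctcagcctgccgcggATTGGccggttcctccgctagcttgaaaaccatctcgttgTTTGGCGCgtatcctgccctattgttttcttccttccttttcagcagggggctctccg
Counting from 1 at the start, the E2F-type match began at position 32 in Ncapg, at 1 and at -249 in Ncapg2, and at -8 in Ncapd2. Of all 32851 promoter windows in the RefSeq table, 2.26% held such a match. CHR letters stood in the windows of Smc2, Ncapg, Ncapd2, Ncapg2 and the second of 2 Ncapd3 windows, and in 17.9% of all windows. A CCAAT box stood in those of Smc2, Ncapg and Ncapd2, and in 37.4% of all windows. The windows of Ncaph, which rose, and of Ncaph2, which did not pass, held none of the 3 motifs, and Ncapd2 held all of them without passing the test. A match is a description of these letters and not a measured site of binding.

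The 2 SMC ATPases, on which the ring is built, were both higher in KHR tumours, and Smc2 passed the test. Smc2 ranged from 9.11 to 9.88 in KHR tumours (median 9.60) and from 8.42 to 9.20 in KR tumours (median 8.94). Its change was 0.70 ± 0.15 (SE; limma adjusted p = 0.0176), a fold of 1.63 with a 95% interval of 1.30 to 2.03. The groups overlapped only at KHR 1 and KR 4, and Smc2 kept its call on leaving out each array in turn (adjusted p up to 0.0442). Smc4 ranged from 10.12 to 10.64 in KHR tumours (median 10.28) and from 8.77 to 9.998 in KR tumours (median 9.82). No KHR array fell as low as any KR array, yet the change of 0.63 ± 0.18 (SE) missed the threshold (limma adjusted p = 0.0844). The width of the KR group came from KR 1. Without that array the change of Smc4 was 0.45 and passed (adjusted p = 0.0482), and it did not pass on leaving out any other (adjusted p up to 0.152). Averaging its probesets instead of taking their median gave a change of 0.37 (adjusted p = 0.195).

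Smc4 is also the host of a microRNA pair, Mir15b and Mir16-2, whose mature 5p strands share the seed shown in capitals (bases 2 to 8), from RefSeq build GRCm38.p6. The miR-15 and miR-16 family is known for restraining G1 cyclins, and the sequences are given because they lie within the Smc4 gene.
mmu-miR-15b-5p: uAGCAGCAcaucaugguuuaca
mmu-miR-16-5p: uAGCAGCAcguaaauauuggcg
Mir15b lies at chr3:69009775-69009796 and Mir16-2 at chr3:69009918-69009939 for these strands, both on the plus strand. The array has 1 probeset for each hairpin gene. Mir15b averaged 5.92 in KHR tumours and 5.86 in KR tumours, a difference of 0.06 ± 0.24 (SE; limma adjusted p = 0.944). Mir16-2 averaged 5.57 in KHR tumours and 5.37 in KR tumours, a difference of 0.21 ± 0.23 (SE; limma adjusted p = 0.750). Neither passed the test, and these probesets do not separate mature from precursor RNA.

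Among the condensin I genes, the kleisin had the largest change, and the largest of the 8 by the median of probesets. By their mean, Ncapg2 changed by 0.96 and Ncaph by 0.88, and by median polish Ncapg2 changed by 0.87 and Ncaph by 0.85. Ncaph, which bridges the heads of the SMC pair and recruits the other subunits, ranged from 8.39 to 9.07 in KHR tumours (median 8.60) and from 7.23 to 8.004 in KR tumours (median 7.65). Its change was 0.99 ± 0.14 (SE; limma adjusted p = 0.00145), a fold of 1.99 with a 95% interval of 1.61 to 2.46. The lowest KHR array, KHR 4, was above the highest KR array, KR 4, and 99.2% of all genes had a smaller change. Ncapg, a HEAT-repeat subunit that, in the yeast complex, grips DNA together with the kleisin, ranged from 8.25 to 9.41 in KHR tumours (median 8.57) and from 7.71 to 8.39 in KR tumours (median 7.999). It rose by 0.67 ± 0.17 (SE; limma adjusted p = 0.0468). That call sat near the threshold: it was lost, with an adjusted p of up to 0.109, on leaving out 9 of the 12 arrays one at a time, and without KHR 5, the highest array, the change was 0.52. Ncapd2, the other HEAT-repeat subunit, was the most scattered gene of the 8 among KHR tumours. It ranged from 7.67 to 8.995 in KHR tumours (median 8.23) and from 7.42 to 8.12 in KR tumours (median 7.83). Only 4 KHR arrays were above the highest KR array, and the difference of 0.47 ± 0.19 (SE) did not pass (limma adjusted p = 0.244; 95% interval 0.05 to 0.89).

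In condensin II, the HEAT-repeat subunits rose and the kleisin did not pass. Ncapg2 ranged from 8.22 to 8.86 in KHR tumours (median 8.65) and from 7.23 to 8.08 in KR tumours (median 7.66). Its change was 0.90 ± 0.16 (SE; limma adjusted p = 0.00596), a fold of 1.86 with a 95% interval of 1.48 to 2.36. Every KHR array was above every KR array, and the call stood on leaving out each array in turn (adjusted p up to 0.0182). Ncapd3, a HEAT-repeat subunit known from human cells to bind methylated histones, ranged from 8.07 to 8.88 in KHR tumours (median 8.73) and from 7.78 to 8.21 in KR tumours (median 7.99). It rose by 0.61 ± 0.13 (SE; limma adjusted p = 0.0222), and only KHR 2 lay within the range of the KR arrays. Its call was lost without KHR 3, KHR 4, KHR 6, KR 1 or KR 2 (adjusted p up to 0.0557). Ncaph2, the kleisin of condensin II, ranged from 7.73 to 8.40 in KHR tumours (median 7.95) and from 7.42 to 8.09 in KR tumours (median 7.62). The difference was 0.30 ± 0.14 (SE; limma adjusted p = 0.295; 95% interval 0.01 to 0.60), with 2 KHR arrays above the highest KR array. With the mean over its 10 probesets the difference was 0.05 (adjusted p = 0.832), and with median polish it was 0.05 (adjusted p = 0.808).

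**Figure D2:**
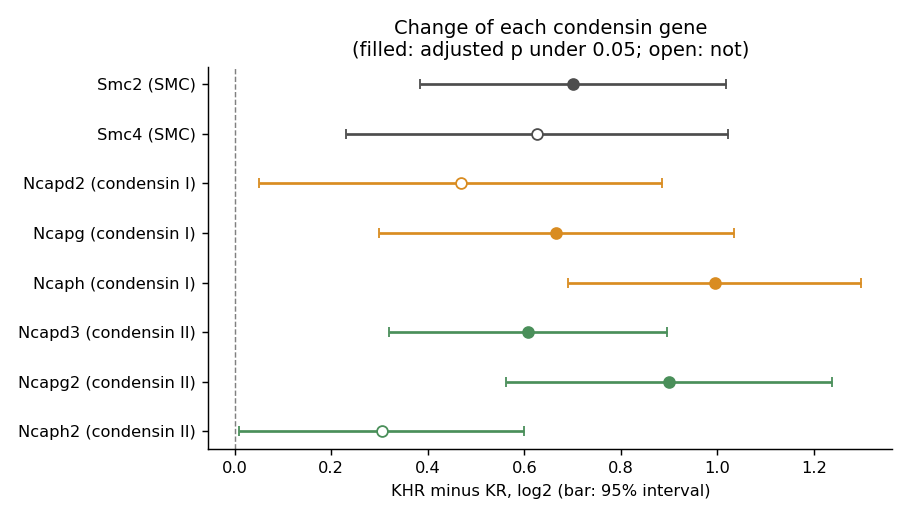
Change of each condensin gene (horizontal axis, KHR minus KR on the log2 scale) with its 95% interval from limma over 6 KHR and 6 KR arrays. Filled points had an adjusted p under 0.05: Smc2, Ncapg, Ncaph, Ncapd3 and Ncapg2; the intervals of Smc4, Ncapd2 and Ncaph2 lie above 0 but these genes did not pass after adjustment.

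Whether counterparts of the complexes changed by unequal amounts was tested on the difference between them within each array, over 4 pairs. The kleisins did. Ncaph minus Ncaph2 averaged 0.67 ± 0.10 in KHR tumours and -0.02 ± 0.38 in KR tumours (SD, n = 6 each), so that the condensin I kleisin changed by 0.69 ± 0.16 more than the condensin II kleisin (SE; exact permutation test, two-sided, p = 0.00433, adjusted p = 0.0173 over the 4 pairs). Such differences are read only between groups, since the intensities of different probesets set no level of one gene against another. The KHR values lay close together, from 0.50 to 0.80, and of the KR values only that of KR 4 (0.58) came within them. On leaving out each array in turn the difference stayed between 0.59 and 0.81 (adjusted p up to 0.0260). The Ncaph2 side of it rests on 10 probesets, 3 of them below the median level of all probesets.

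No unequal change was shown for the other pairs. Ncapg minus Ncapg2 averaged 0.09 ± 0.29 in KHR tumours and 0.33 ± 0.27 in KR tumours (SD, n = 6 each; exact permutation p = 0.180, adjusted p = 0.359), with a 95% interval for the difference of -0.59 to 0.12. Ncapd2 minus Ncapd3 averaged -0.31 ± 0.72 in KHR tumours and -0.17 ± 0.33 in KR tumours (SD, n = 6 each; exact permutation p = 0.682, adjusted p = 0.810), with an interval of -0.86 to 0.58. Smc4 minus Smc2 averaged 0.74 ± 0.18 in KHR tumours and 0.81 ± 0.54 in KR tumours (SD, n = 6 each; exact permutation p = 0.810, adjusted p = 0.810), with an interval of -0.59 to 0.44. The intervals are from a t distribution with the SD pooled over the groups, not from the permutation test. They leave room for unequal changes in either direction. For the SMC pair the summary of probesets mattered: with the mean over probesets Smc4 changed by 0.37 less than Smc2 (exact permutation p = 0.0108, adjusted p = 0.0217).

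**Figure D3:**
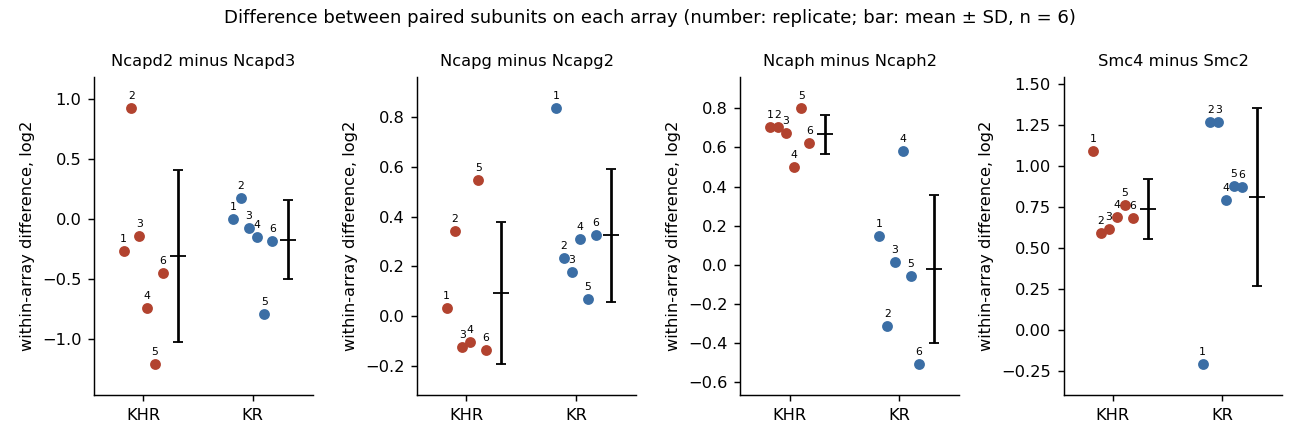
Difference between paired subunits within each array (vertical axis, log2) for the 6 KHR and the 6 KR arrays, with replicate numbers and bars for the mean ± SD. For Ncaph minus Ncaph2 the KHR arrays sit between 0.50 and 0.80 and the KR arrays spread from -0.51 to 0.58; for the other pairs the groups overlap widely.

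The rise ran along the transcripts of the genes that passed. Of the 194 probesets of the 8 genes, 183 (94.3%) had a higher mean in KHR tumours, where 50.6% of all probesets did. In a limma test of single probesets, adjusted over all of them, 24 (12.4%) were called higher and none lower, where 0.616% of all probesets were called higher. Probesets of 1 gene share its RNA and are not replicates. Ncapg2 was higher at all 28 of its probesets, with changes from 0.31 to 1.75 and 5 calls. Ncaph was higher at 19 of 20 (6 calls), Smc2 at 28 of 29 (6 calls), Ncapd3 at 33 of 34 (5 calls) and Ncapg at 18 of 19 (2 calls). The genes that missed the threshold had no called probeset. Smc4 was higher at 26 of 28 with a median of 0.48, and 2 of its probesets stood apart on the low side, the lowest at -0.73. Ncapd2 was higher at 25 of 26 with a median of 0.37, and its extremes were -0.63 and 1.49. Ncaph2 was higher at 6 of 10 with a median of 0.06, so its gene value rests on few and discordant probesets. Its 3 probesets below the median level of all probesets (5.62) changed by -0.34, -0.33 and -0.11. A brighter one, at a level of 8.68, changed by -0.15. The probeset at -0.11 is numbered apart from the run of the other Ncaph2 probesets, and where it maps was not checked.

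**Figure D4:**
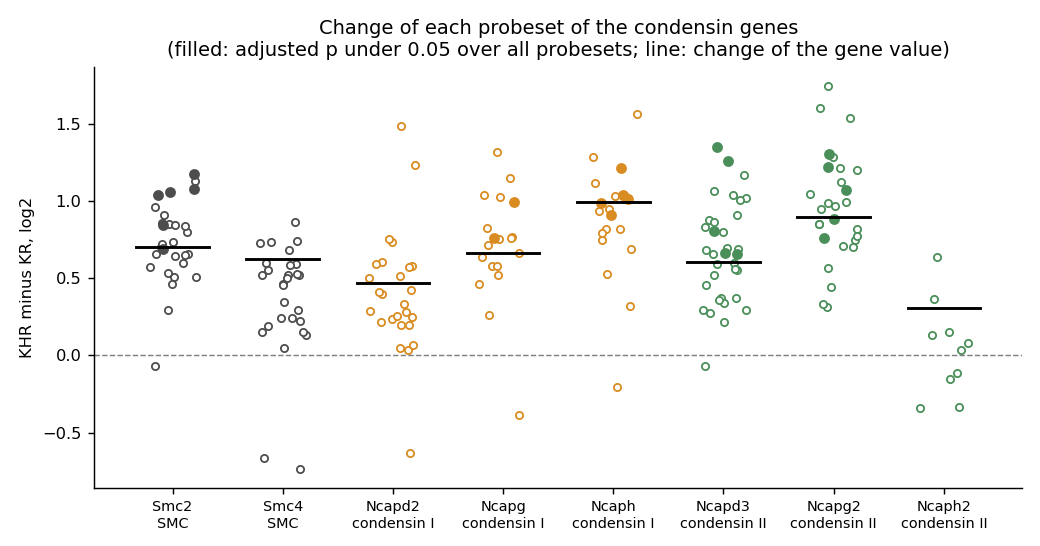
Change of each of the 194 probesets (vertical axis, KHR minus KR on the log2 scale), grouped by gene, with a line at the change of the gene value. Filled points passed an adjusted p of 0.05 over all probesets; the points of Ncapg2 all lie above 0, and those of Ncaph2 spread on both sides of it.

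The condensin genes did not vary as a single block from tumour to tumour. After the mean of each group was removed, Pearson's r over the 12 arrays had a median of 0.27 over the 28 pairs of genes and was above 0.5 for 7 pairs, a description in which all points share the same arrays. Smc2 with Ncapg (0.84) and Ncapd3 with Ncapg2 (0.84) were the most alike, followed by Smc4 with Ncapg2 (0.75). Ncapd2 went the other way from its counterpart, at -0.63 with Ncapd3. In KHR tumours, KHR 2 had the highest Ncapd2 (8.995) and the lowest Ncapd3 (8.07), and KHR 5 had the lowest Ncapd2 (7.67) and the highest Ncapd3 (8.88). In KR tumours, KR 5 likewise had the lowest Ncapd2 (7.42) and the highest Ncapd3 (8.21).

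The tumours with more condensin RNA, as the mean of the 8 genes, were in part those with more RNA of the mitotic genes. The mean deviation of the 8 genes from their group mean was highest in KHR 3 (0.23) and lowest in KHR 1 (-0.24) among KHR tumours, and highest in KR 4 (0.21) and lowest in KR 1 (-0.20) among KR tumours. Over the 12 arrays it ran with the mean deviation of 14 mitosis genes (r = 0.79) more closely than with that of 14 replication genes (r = 0.32), and all r are given as descriptions. Markers of other cells gave r of 0.43 for leukocytes, 0.41 for muscle and 0.25 for fibroblasts. The mean of 6 leukocyte markers ran from 5.72 to 6.07 in KHR tumours and from 5.49 to 5.85 in KR tumours, and none of the 6 was called. That of 6 fibroblast markers ran from 8.65 to 9.62 in KHR tumours and from 8.46 to 9.95 in KR tumours, and 1 of the 6 was called lower. The squamous keratinocyte markers ran against it (r = -0.60), and the part of cell mixture in these values was not tested. By gene, r with the mitosis genes was 0.78 for Smc2, 0.66 for Ncaph, 0.64 for Ncapg2 and 0.55 for Ncapg. It was lower for Ncapd3 (0.35), Ncapd2 (0.22), Smc4 (0.20) and Ncaph2 (0.17). Among 10638 other genes with 3 or more probesets and a level above the median, those most like the mean of the 8 were Ipo5 (r = 0.98), Nars2 (0.95), Pibf1 (0.95), Ccar1 (0.94) and Rab32 (0.93). None of these 5 was called different between the groups. Of the 2 most like each member, Hat1 and Ddx3x followed Ncapg2 (0.97 and 0.95), Cpox and Fam114a2 followed Smc4 (0.94 each), and Asf1a and Dancr followed Ncapg (0.92 and 0.91). Dennd4c and Lnpk followed Smc2 (0.92 and 0.91), Pcgf6 and Parn followed Ncaph (0.92 and 0.90), and Zfp960 and Alg10b followed Ncapd3 (0.92 each). Endov and Ano1 followed Ncapd2 (0.91 and 0.90), and Rcbtb1 and Apobec3 followed Ncaph2 (0.91 and 0.85). Of these 16 only Hat1 was called, with a rise of 1.05 (limma adjusted p = 0.0488), where 3.74% of all genes were called. These r are the highest among 10638 genes over 12 arrays, so the ranking itself selects large values. They were not tested.

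Of the kinases, phosphatases and other regulators of condensin, 2 kinases rose. Of 12 measured regulators, 2 rose and none fell, with a median change of 0.32, where 2.71% of all genes were called higher. Cdk1, the mitotic kinase that phosphorylates condensin subunits, averaged 10.39 ± 0.22 in KHR tumours and 9.64 ± 0.24 in KR tumours (SD, n = 6 each), a rise of 0.75 ± 0.13 (SE; limma adjusted p = 0.00515). Aurkb, the Aurora B kinase that promotes the loading of condensin I, rose by 0.64 ± 0.10 (SE; limma adjusted p = 0.00225). Ppp2ca, a catalytic subunit of the phosphatase PP2A, had the smallest p among those that did not pass, with a difference of -0.36 ± 0.12 (SE; limma adjusted p = 0.135). Mcph1, the microcephalin gene whose protein holds condensin II back in interphase, differed by 0.18 ± 0.11 (SE; limma adjusted p = 0.514) and is named outside the rule for genes, after its values were seen.

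Partners of condensin on mitotic chromosomes included several that rose. Of 10, 6 rose and none fell, with a median change of 0.50, where 2.71% of all genes were called higher. Nusap1, a microtubule-binding protein of the spindle near chromosomes, rose by 0.95 ± 0.16 (SE; limma adjusted p = 0.00399). Kif4, the chromokinesin that shapes chromosome arms together with condensin, rose by 0.98 ± 0.18 (SE). Top2a, the topoisomerase that untangles sister DNA, rose by 0.72 ± 0.13, and Mki67, whose protein coats mitotic chromosomes, by 0.66 ± 0.13 (limma adjusted p = 0.00634 and 0.00998). Akap8, a chromatin anchor known from human cells to recruit condensin, differed by 0.20 ± 0.10 (adjusted p = 0.325).

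Of the other SMC complexes, some genes rose in cohesin, and in SMC5/6 only Smc5 did. The share called higher over all genes was 2.71%. Of the 7 other SMC family ATPases, 2 rose and none fell (median change 0.49): Smc5, of the SMC5/6 complex of DNA repair, by 0.83 ± 0.15 (SE; limma adjusted p = 0.00731), and Smc1b, of meiotic cohesin, by 0.70 ± 0.13 (adjusted p = 0.00768). Smc1b averaged 4.48 in KHR tumours and 3.78 in KR tumours, under the level of most genes, where array intensities give no exact size. Rad50, of the MRN repair complex, differed by 0.49 ± 0.14 (adjusted p = 0.0684). Of 9 non-SMC genes of mitotic cohesin and its regulators, 2 rose and none fell (median change 0.20): the cohesin regulator Pds5b by 0.48 ± 0.10 and Cdca5, which encodes sororin, by 0.45 ± 0.12 (limma adjusted p = 0.0209 and 0.0483). That count was 1 on leaving out any array but KHR 3 (0) or KR 4 (2), and 1 with the muscle or the Xist covariate. Stag1, a cohesin subunit, differed by 0.30 ± 0.14 (adjusted p = 0.297). None of 6 non-SMC genes of SMC5/6 passed (median change 0.22), and Slf1, a factor that directs that complex to damaged DNA, came closest with a difference of 0.87 ± 0.23 (adjusted p = 0.0560). Without KHR 1 or KR 5, or with the mean over probesets, 1 of the 6 passed, and with median polish 2 did.

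Against the division programme as a whole, the condensin genes had a median change close to that of the mitosis genes. All 14 replication genes rose, with a median change of 1.08, where 2.71% of all genes were called higher. Those with the smallest p were Prim1 (primase), Mcm6 and Mcm4 (subunits of the replicative helicase) and Rrm1 (ribonucleotide reductase) with changes of 1.62, 1.30, 1.11 and 0.99. Of 14 mitosis genes, 11 rose and none fell, with a median change of 0.71, beside 0.65 for the 8 condensin genes. Ccnb2 (cyclin B2), Ttk (the checkpoint kinase Mps1), Tpx2 (a spindle assembly factor) and Aurka (Aurora A) rose by 0.81, 0.99, 0.81 and 0.74, and Prc1, of the central spindle, differed by 0.71 without passing (limma adjusted p = 0.0794). These medians describe the lists, whose difference was not tested.

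**Figure D5:**
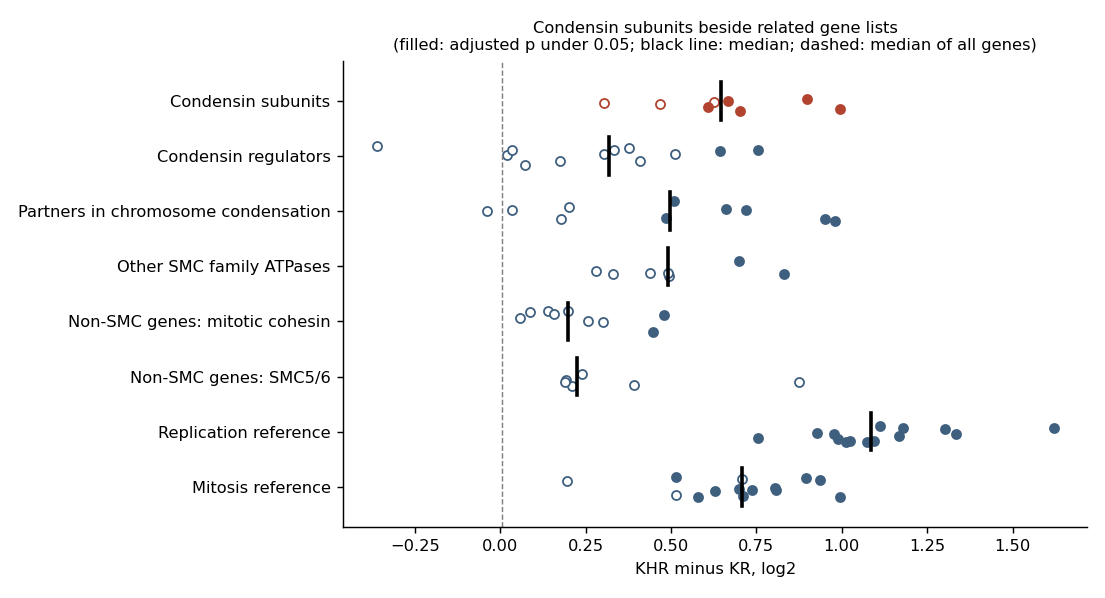
Change of every measured gene (horizontal axis, KHR minus KR on the log2 scale) for the 8 condensin subunits and 7 related lists, with a black line at each median and a dashed line at the median of all genes (0.00). The condensin median of 0.65 lies near that of the mitosis genes (0.71) and left of that of the replication genes (1.08).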

How the data were processed

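Total RNA of 12 tumours was measured on 1 array each. The deposited values were log2 intensities per probeset, which the authors made with Partek, per the submitters' processing notes. The sources used here do not give its version, the background correction, the normalization or the genome build, and the base of the log was read from the values. Having 6 arrays a group limits the precision.

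Of 269751 probesets, 233753 had 1 gene symbol in GEO's platform annotation, 5106 had several and 30892 had none. Older symbols were updated through RefSeq synonyms (GRCm38.p6): of 23152 symbols, 20875 were current, 2247 were updated and 30 kept. A gene's value was the median of its probesets with 1 symbol. No 2 arrays correlated above 0.97.

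Genes were tested with limma 3.58.1 in R 4.3.3, two-sided, over all 23102 genes with Benjamini-Hochberg adjustment and checked on simulated data. Pairs of subunits were tested by exact permutation (smallest p 0.00216). Python 3.11.15, pandas 2.3.3, numpy 2.4.6, scipy 1.17.1 and matplotlib 3.10.9 made the tables and figures. The members, lists and tests were chosen with earlier results of these data known. The rule named all 8 subunits, of each list up to 4 called genes with the smallest p and the next 1 not called, and the genes of most like deviations. Alternatives were other summaries of probesets, other scalings, filters, weights, covariates, thresholds, a rank test, a block and leaving out arrays.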

Additional observations from a re-analysis of the deposited data

Results flagged for a closer look

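Within groups of 6 arrays, 24 sets of values of the condensin genes and their pairs were examined for 1 array far from the others, and 6 had one. Chance gives about 1 such set in 20. The sets overlap, since the pairs are made from the genes. Smc4 was low in KR 1, at 8.77, and its pair with Smc2 was low there too, at -0.21. KR 1 was also high for Ncapg minus Ncapg2, at 0.84. Ncapg was high in KHR 5, at 9.41, the KHR tumour with the highest skeletal muscle mean. Ncapd2 minus Ncapd3 was low in KR 5, at -0.79, and Smc4 minus Smc2 was high in KHR 1, at 1.09. The causes were not tested.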

How the results depend on the processing

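Of the 8 genes, none changed direction under the 12 alternatives that gave each a change, or on leaving out an array. The rank test, whose smallest p is 0.00216, called 0 of all genes after adjustment (3050 at an unadjusted p under 0.05; limma 3662), 0 of the 8 (6 unadjusted) and 0 of the 72 list genes (49 unadjusted). Calls among the 8 were 2 with the muscle covariate and 2 at an adjusted p under 0.01. With the muscle covariate Smc2, Ncapd3 and Ncapg kept changes of 0.62, 0.54 and 0.52. Over all genes, calls were 312 at an adjusted p under 0.01 and 620 with the muscle covariate, against 863. They were 555 with Xist as a covariate and 1445 with the mean over probesets. Ncapg was called in 6 of the 12 alternatives (adjusted p 0.0169 to 0.111). Leaving out each array in turn gave 3 to 5 calls among the 8, 523 to 1085 over all genes (523 without KHR 4, 531 without KR 2), and 34 to 39 over the lists, against 37. By list, calls in cohesin (2) were 1 with array medians, quantiles, weights, trend, the block or either covariate. Calls in SMC5/6 (0) were 1 with weights, trend, the block, either gene filter or averaged probesets, and 2 with median polish. Calls among regulators (2) were 4 with the mean over probesets or median polish. For the pairs it gave 0.59 to 0.81 (Ncaph minus Ncaph2), -0.32 to -0.13 (Ncapg minus Ncapg2), -0.39 to 0.0401 (Ncapd2 minus Ncapd3, above 0 without KHR 5) and -0.28 to 0.0166 (Smc4 minus Smc2, above 0 without KR 2, and without KR 3 at 0.0165). With the mean over probesets Smc4 minus Smc2 was -0.37 (adjusted p = 0.0217). The replicate numbers showed no clear pairing of the samples. Deviations of same-numbered arrays correlated from -0.003 to 0.234, and 1 of 6 KHR arrays correlated best with its own number. Weak correlations cannot exclude a pairing, and the labels do not state whether the numbers pair the samples. With the number as a block 4 of the 8 and 925 of all genes were called, and Ncaph minus Ncaph2 stayed at 0.69, where a sign-flip test over 6 pairs can give no adjusted p below 0.125 (here 0.250). The causes of these differences were not tested. With no detection calls, dim genes have no exact size of change.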

Other observations

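Among the neighbours of the condensin genes, a noncoding gene beside Ncapg2 also rose. D430020J02Rik, a lncRNA gene on the opposite strand just upstream of Ncapg2 in the assembly GRCm38.p6, ranged from 6.12 to 6.70 in KHR tumours and from 5.07 to 5.38 in KR tumours. It rose by 1.12 ± 0.11 (SE; limma adjusted p = 0.000124), and by 1.05 to 1.17 on leaving out each array in turn (adjusted p up to 0.000600). Its value rests on 2 probesets. Within the groups its deviations ran only weakly with those of Ncapg2 (r = 0.19 over 12 arrays, a description). It was the 1 gene called of 18 measured within 5 kb of a condensin gene, where 3.74% of all genes were called in either direction. The median change of the 18 was 0.11, and the lncRNA gene was singled out after its values were seen. A count of 1 says nothing of the neighbours as a group. Of the other members, Ncapd3, Ncaph2, Ncapd2 and Smc2 had a close, non-overlapping neighbour listed on the opposite strand, and none of these passed. Vps26b beside Ncapd3 differed by 0.09, Lmf2 beside Ncaph2 by 0.16, Mrpl51 beside Ncapd2 by 0.12 and Smc2os beside Smc2 by 0.04. The strand of Smc4 was not listed. Its neighbours Ift80 and Trim59 differed by 0.22 and 0.37 without passing (limma adjusted p = 0.724 and 0.229).

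Another 3 probesets are annotated to both Lcorl and Ncapg and were not used in any value above. They were higher in KHR tumours by 0.64, 0.83 and 0.46, without a test, beside 0.67 for Ncapg itself and 0.35 ± 0.17 (SE; limma adjusted p = 0.325) for Lcorl.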
